A study of Mus musculus with 6 samples.

Results

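The matrix metalloproteinases Mmp2, Mmp3, Mmp8, Mmp9, Mmp14 and Mmp19 and the 4 tissue inhibitors Timp1, Timp2, Timp3 and Timp4 were followed in single cells of the mouse genioglossus, a muscle of the tongue and one of the dilators of the upper airway. They were chosen by gene symbol, and each of the 10 symbols was found on 1 of the 33696 rows of the gene list. The OSA group was labelled OSA-4W, a model of obstructive sleep apnea, the disorder of repeated airway collapse in sleep, with muscle taken 4 weeks after modelling, and the control group was labelled control. All mice were male and all libraries carried the label of batch 1, while strain, age, the way the model was made and whether a library was 1 animal are not given in the sources used here. Droplet libraries were read from OSA replicates 1, 2 and 3 and from control replicate 2. Expression matrices for the other 2 control replicates were not used here. Every comparison therefore sets 3 OSA libraries against 1 control library, and its p-value measures the spread between libraries, which may be technical.

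Matrix metalloproteinases are zinc enzymes that cut collagens, other matrix proteins and signalling proteins outside the cell. Most are secreted as inactive proenzymes, whereas Mmp14 (MT1-MMP) is held in the cell membrane, where it cuts collagen and, with Timp2 as an adaptor, activates pro-Mmp2. The TIMPs block the active site of the enzymes. Timp1 is a secreted inhibitor that inflammatory signals and injury are known to induce, and Timp3 binds to the matrix and also inhibits ADAM proteases. In muscle these genes are known for their part in matrix turnover, in leukocyte entry and in repair after injury.

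The OSA matrices held 78935595, 74007957 and 82184913 UMIs (unique molecular identifiers, 1 for each captured RNA molecule) and the control matrix 70217449. After filtering, 15218, 12229 and 13736 OSA cells and 13275 control cells were kept. Libraries shared 41 to 67 cell barcodes in a pair, at most 0.468% of the smaller list. Classes were named from marker genes and are written with "-like". The labels call the samples skeletal muscle cells, but only 28 of 54458 kept cells took the name myofibre-like, and endothelial-like, fibroblast-like and mural-like cells were the most numerous. OSA replicates 2 and 3 stood apart in their leukocytes. Neutrophil-like cells were 1.24%, 4.19% and 1.81% of the kept cells in OSA replicates 1, 2 and 3 and 0.316% in the control, and macrophage-like cells 2.78%, 3.82% and 11.6% in OSA and 1.60% in the control.

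The promoter windows of Mmp3, Mmp14 and Timp1 are shown because the results on fibroblast-like and macrophage-like cells turn on these 3 genes. RefSeq windows of 250 bases before to 50 bases after the gene's start (build GRCm38.p6) were found for 7 members and for 3 (Mmp2, Mmp9 and Mmp19) were not. The capitals mark matches on either strand to TGANTCA (the AP-1 motif), GGGCGG (the GC box) or TATAAA (the TATA box).
Mmp3, chr9:7445572-7445871, plus strand: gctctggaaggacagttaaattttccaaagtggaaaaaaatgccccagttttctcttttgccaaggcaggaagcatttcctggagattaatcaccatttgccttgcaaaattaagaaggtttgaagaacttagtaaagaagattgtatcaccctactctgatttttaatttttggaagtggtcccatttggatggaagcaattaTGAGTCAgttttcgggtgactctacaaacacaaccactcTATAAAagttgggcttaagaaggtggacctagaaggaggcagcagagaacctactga
Mmp14, chr14:54431348-54431647, plus strand: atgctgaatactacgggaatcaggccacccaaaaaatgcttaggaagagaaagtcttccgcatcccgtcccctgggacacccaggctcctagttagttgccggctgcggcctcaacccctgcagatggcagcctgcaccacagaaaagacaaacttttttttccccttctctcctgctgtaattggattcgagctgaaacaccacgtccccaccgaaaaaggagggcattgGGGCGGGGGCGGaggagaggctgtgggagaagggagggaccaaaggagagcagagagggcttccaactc
Timp1, chrX:20869916-20870215, plus strand: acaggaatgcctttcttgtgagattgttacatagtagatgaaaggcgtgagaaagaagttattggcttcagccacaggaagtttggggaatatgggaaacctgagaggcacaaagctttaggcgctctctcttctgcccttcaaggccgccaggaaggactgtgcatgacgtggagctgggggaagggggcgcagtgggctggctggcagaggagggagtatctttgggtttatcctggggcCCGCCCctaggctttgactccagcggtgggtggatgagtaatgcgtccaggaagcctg
The Mmp3 window held the AP-1 letters and a TATA box, the Mmp14 window 2 adjoining GC boxes that do not overlap, and the Timp1 window 1 GC box. Mmp8 held a TATA box, Timp2 1 GC box, Timp3 2 GC boxes and Timp4 none of the 3 motifs. Over all 32851 windows of the same length, 7.81% held the AP-1 letters, 35.7% a GC box and 13.6% a TATA box. A match is a run of letters and not a measured binding site. In the GENCODE M21 annotation (GRCm38), Timp1, Timp3 and Timp4 lie inside the synapsin genes Syn1, Syn3 and Syn2 on the opposite strand. Whether the authors' counting used the strand is not given in the sources used here. Over all kept cells the synapsin genes held 253 to 1388 UMIs in the OSA libraries and 277 to 824 in the control. The 3 TIMP genes inside them held 4108 to 88980 and 1620 to 55208. Single classes could have counts closer together. In macrophage-like cells Syn1 had 35, 21 and 89 UMIs in OSA and 8 in the control. Timp1 had 72, 109 and 457 there in OSA and 6 in the control. In mural-like cells Syn1 had 25, 37 and 18 in OSA and 31 in the control. Timp1 had 116, 393 and 280 there in OSA and 41 in the control. The part of the strand in the Timp1 levels was not tested.

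Each member had its own cell classes (the plot of levels by class). Levels are in CPM, the UMIs of the member per 1000000 UMIs of the class in that library. Mmp2 (gelatinase A) and Timp2 were at their highest in the stromal classes. Mmp2 was at 825, 609.6 and 916 CPM in tenocyte-like cells of OSA replicates 1, 2 and 3 and 679 CPM in the control, and at 599, 580.3 and 935 CPM in fibroblast-like cells of OSA and 506 CPM in the control. The ranges of these 2 classes overlapped, and each of the other 8 classes was below 95 CPM in every library. Timp2 was at 1257, 1390.0 and 1613 CPM in tenocyte-like cells of OSA and 1183 CPM in the control, and the next class, fibroblast-like cells, overlapped with it at 1020.1, 1169 and 1569.6 CPM in OSA and 1124 CPM in the control.

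**Figure D1:**
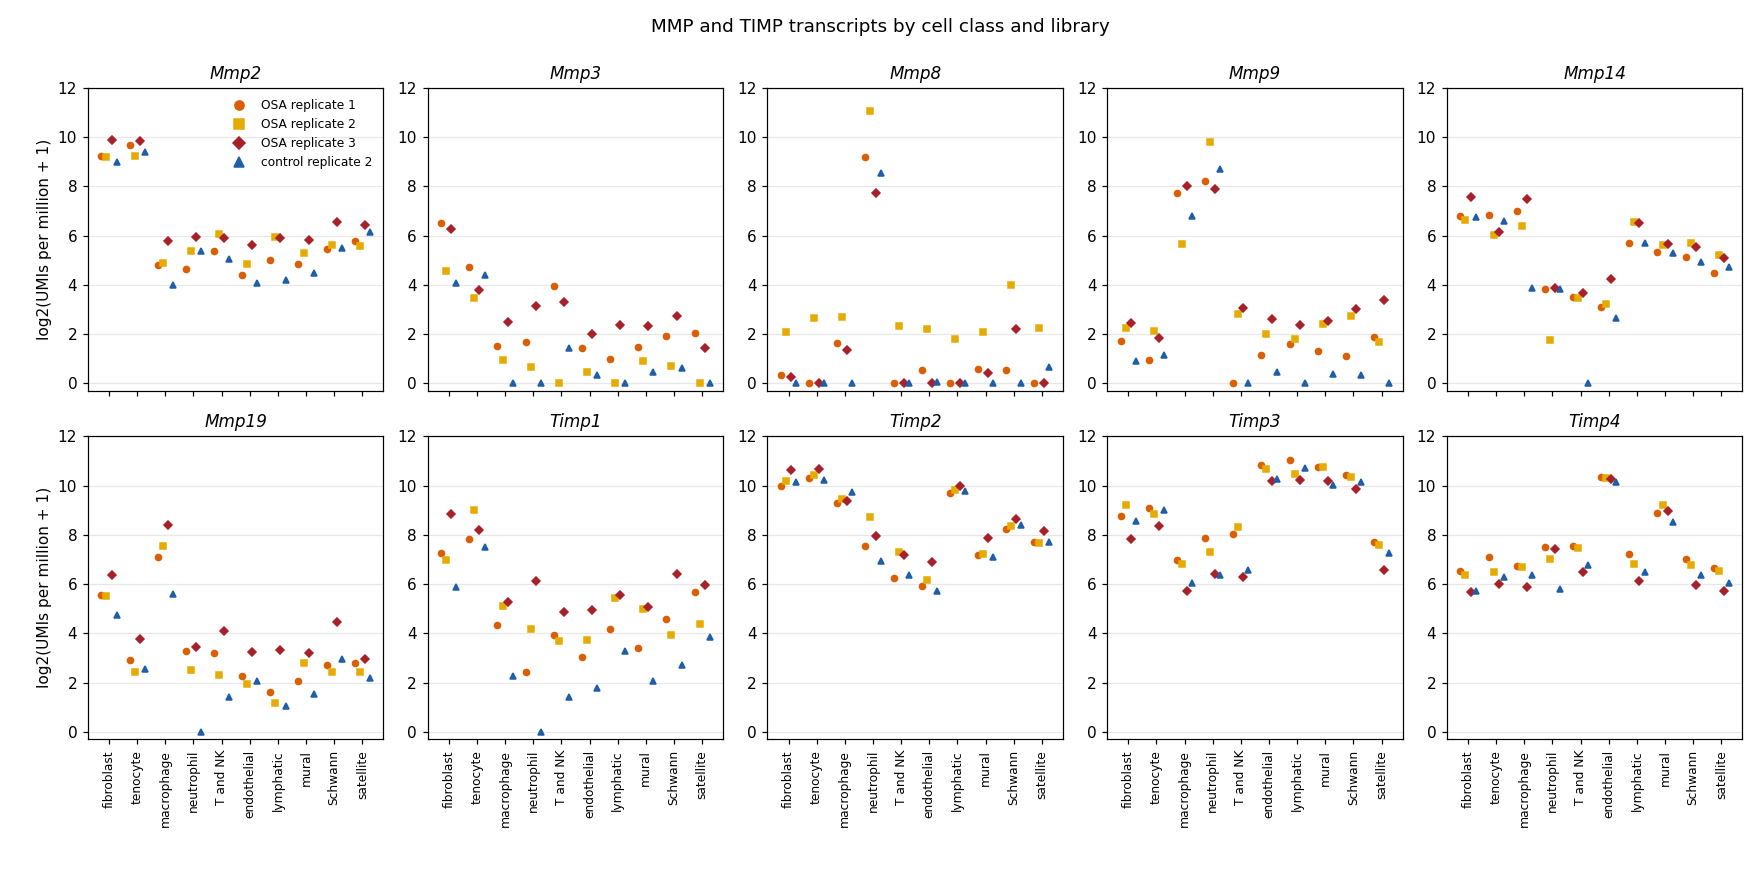
Levels of the 10 members in 10 cell classes, as log2(CPM + 1), with 1 symbol for each library and the OSA libraries left of the control in each class. Mmp2 and Timp2 stood highest in fibroblast-like and tenocyte-like cells, Timp3 and Timp4 in vascular classes, Mmp8 in neutrophil-like cells, and Mmp9 in neutrophil-like and macrophage-like cells.

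Timp3 and Timp4 were at their highest in cells of the vessels. Timp3 was at 1803, 1611 and 1152 CPM in endothelial-like cells of OSA and 1232 CPM in the control, and its levels in mural-like, lymphatic endothelial-like and Schwann-like cells overlapped with these. Among clusters it was highest in pericyte cluster 14, with 3130, 3095 and 2079 CPM in OSA and 2048 CPM in the control. Timp4 was at 1319, 1277 and 1232 CPM in endothelial-like cells of OSA and 1145 CPM in the control, and the next class, mural-like cells, did not overlap with it, at 470.1, 599 and 501 CPM in OSA and 368 CPM in the control. Capillary cluster 6 held the most Timp4 of the endothelial clusters, 1759, 1569 and 1542 CPM in OSA and 1529 CPM in the control. Timp4 UMIs were also found in T and NK-like cells, which are not known for the gene. At 1 fixed depth of 1000 UMIs per cell, 13.3%, 10.1% and 5.71% of these cells had a Timp4 UMI in OSA and 8.33% in the control, against 64.9%, 64.7% and 62.1% of endothelial-like cells in OSA and 61.4% in the control. The summed endothelial markers in the same T and NK-like cells were 819, 532 and 401 CPM in OSA and 581 CPM in the control, beside Timp4 at 185, 175 and 89.98 CPM in OSA and 109.7 CPM in the control, and their part in the Timp4 level was not tested.

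The UMIs of the remaining members came from leukocytes and stromal cells in shares that differed between libraries. Mmp8 (neutrophil collagenase) came mostly from neutrophil-like cells, which held 80.1%, 91.4% and 64.5% of its UMIs in OSA and 87.5% in the control. Mmp9 (gelatinase B) came from macrophage-like cells for 75.5%, 8.31% and 85.2% of its UMIs in OSA and 71.8% in the control, and in OSA replicate 2 from neutrophil-like cells for 78.9%. Mmp3 (stromelysin 1) came from fibroblast-like cells for 88.6%, 84.3% and 89.5% of its UMIs in OSA and 81.0% in the control. Timp1 came from fibroblast-like cells for 65.0%, 46.9% and 82.4% of its UMIs in OSA and 71.2% in the control, and from tenocyte-like cells for 17.9%, 36.4% and 5.50% in OSA and 18.2% in the control. Macrophage-like cells held 12.2%, 7.07% and 24.0% of the Mmp14 UMIs in OSA and 0.644% in the control, and 31.3%, 31.6% and 56.9% of the Mmp19 UMIs in OSA and 9.62% in the control. Cell numbers and levels per cell both enter these shares and cannot be told apart in them.

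**Figure D2:**
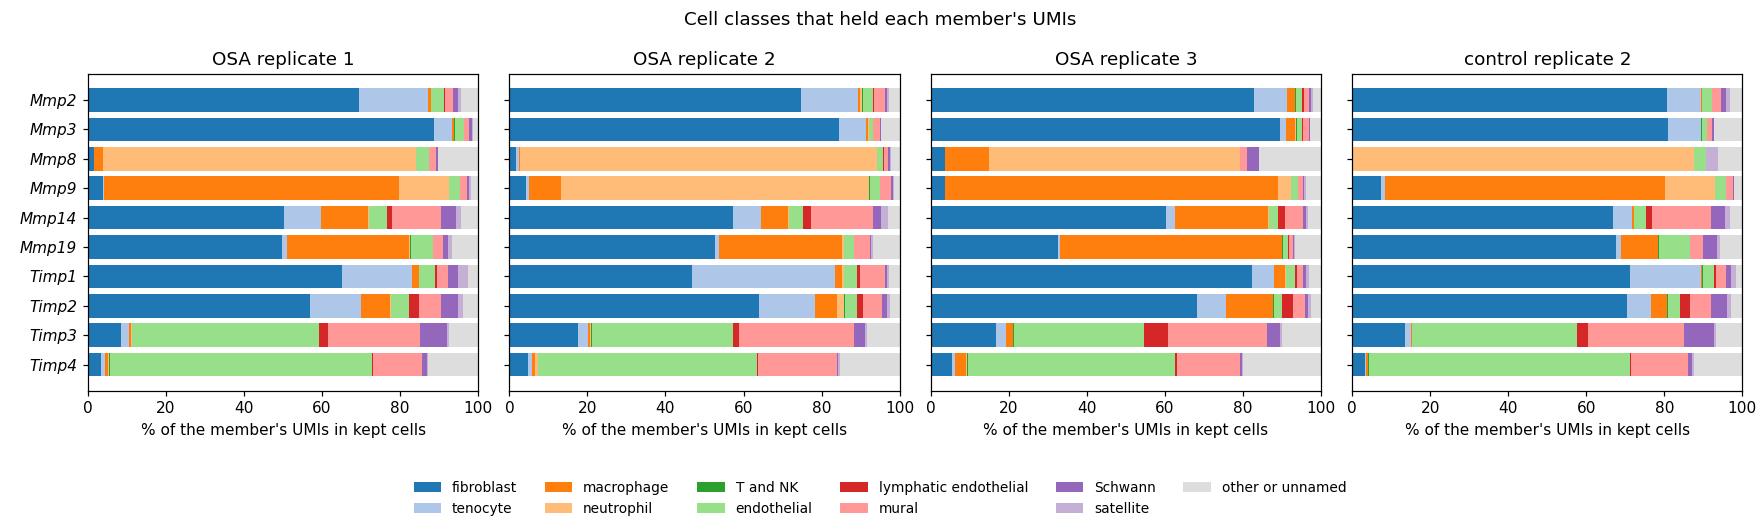
Percentage of each member's UMIs in kept cells that each cell class held, with 1 panel for each library and the OSA libraries left of the control. Macrophage-like cells took 24.0% of Mmp14 and 56.9% of Mmp19 UMIs in OSA replicate 3, against 0.644% and 9.62% in the control.

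No member passed the test in any class. UMI counts were added up within a library and class and tested with the quasi-likelihood test of edgeR at a Benjamini-Hochberg adjusted p of 0.05, and 0 of the 86 fits of a member in a class passed, while 19 had an unadjusted p under 0.05. Among all genes tested, an unadjusted p under 0.05 was found for 2002 of 12645 in macrophage-like, 780 of 7971 in T and NK-like and 448 of 12801 in Schwann-like cells. It was 558 of 9814 in lymphatic endothelial-like, 719 of 11050 in satellite-like, 757 of 16150 in mural-like and 602 of 12612 in tenocyte-like cells. Of the genes tested, 0.751% were called in macrophage-like, 1.94% in T and NK-like, 0.18% in Schwann-like, 0.132% in lymphatic endothelial-like, 0.136% in satellite-like, 0.0619% in mural-like and 0.0476% in tenocyte-like cells. In endothelial-like, fibroblast-like and neutrophil-like cells and over all kept cells edgeR called 0 genes (0%), with 803 of 16238, 687 of 16763, 404 of 6145 and 659 of 20888 genes at an unadjusted p under 0.05, and the Wald test of DESeq2 called 43, 36, 0 and 138 genes there. With 1 control library and 3 in OSA an exact permutation of the libraries could not give a p below 0.25. No member is said to have risen or fallen between the groups. Where the log2 change in a class is given below with 1 OSA library left out, only its size is given. Such a fit sets the remaining OSA libraries against the same single control. Its p-value would mainly measure how alike those OSA libraries were.

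In the 86 fits every OSA library lay above the control in 50, every one below it in 1, and the OSA libraries lay on both sides in 35. In mural-like cells, where all 10 members were tested, each OSA library was above the control for all 10 (24.3% of all genes tested in that class). It was 8 of 10 in endothelial-like cells (26.3% of genes), 7 of 10 in fibroblast-like cells (24.4%), 6 of 10 in macrophage-like cells (35.4%), 5 of 10 in Schwann-like cells (21.6%) and 2 of 10 in tenocyte-like cells (25.5%). In the other classes some members did not pass the filter on low counts, and it was 2 of 5 tested members in T and NK-like cells (26.9%), 3 of 6 in lymphatic endothelial-like cells (25.8%), 4 of 7 in neutrophil-like cells (39.4%) and 3 of 8 in satellite-like cells (27%). Over all kept cells it was 7 of 10 (25.1%). Nothing is read from these counts, since a gene can pass the filter through OSA alone, as Mmp8 did in mural-like, fibroblast-like, macrophage-like and Schwann-like cells with 0 control UMIs. Markers of other cells also stood above the control in mural-like and endothelial-like cells. In mural-like cells the summed fibroblast markers were 1073, 1255 and 1611 CPM in OSA and 816 CPM in the control, with 8 of 9 markers above the control in every OSA library and none at 0, and in endothelial-like cells they were 518, 566 and 789 CPM in OSA and 348 CPM in the control, again 8 of 9 and none at 0. The summed macrophage markers in mural-like cells were 122, 118 and 219 CPM in OSA and 88.4 CPM in the control (7 of 9 markers above the control in every OSA library), and in endothelial-like cells 97.6, 91.1 and 197 CPM in OSA and 72.4 CPM in the control (8 of 9). The summed neutrophil markers, given with Mmp8 and Slpi, stood above the control in both classes for 7 of 9 and 5 of 9 markers. None of these markers was at 0, and the part of the 3 lists in the members' levels in these classes was not tested.

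Timp1 was above the control in every OSA library in 9 of 10 classes, in T and NK-like cells against 1 control UMI, and neutrophil-like cells had 0 control UMIs. In fibroblast-like cells it was at 153, 126 and 456 CPM in OSA and 57.5 CPM in the control, and all 3 OSA libraries lay above the control, with OSA replicate 3 far above the other 2. The log2 change was 2.19 ± 1.39 (SE), with an edgeR adjusted p of 0.999. A single control cell of cluster 9 held 408 of the 1154 control UMIs, and without that cell the control stood at 37.2 CPM. The share of cells with a Timp1 UMI at 1000 UMIs per cell was 6.12%, 9.13% and 15.9% in OSA and 3.01% in the control, and at full depth 26.2%, 38.5% and 47.9% in OSA and 18.2% in the control. Leaving out OSA replicate 2 gave a log2 change of 2.52 in fibroblast-like cells, and leaving out OSA replicate 3 gave 1.27. In tenocyte-like cells Timp1 was at 228, 521 and 288 CPM in OSA and 181 CPM in the control. The log2 change there was 1.05 ± 0.52 (SE), edgeR adjusted p = 1.00, and it was 1.31 without OSA replicate 1. Without the tenocyte-like cell that held 102 of 294 control UMIs the control was at 119 CPM.

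Within each library the vascular and leukocyte classes held less Timp1 than fibroblast-like and tenocyte-like cells. Endothelial-like cells had 7.13, 12.4 and 29.8 CPM in OSA and 2.42 CPM in the control, a log2 change of 2.81 ± 1.46 (SE) with an edgeR adjusted p of 0.957. With OSA replicate 1 left out the log2 change came to 3.21, and with OSA replicate 2 left out to 3.01. Mural-like cells had 9.48, 31.1 and 32.5 CPM in OSA and 3.18 CPM in the control. The log2 change of 2.98 ± 1.32 (SE) had an edgeR adjusted p of 1.00, and it was 3.39 without OSA replicate 1. Macrophage-like cells had 19.4, 33.6 and 37.8 CPM in OSA and 3.87 CPM from 6 UMIs in the control, with a log2 change of 3.04 ± 0.66 (SE) and an edgeR adjusted p of 0.076. Dropping OSA replicate 2 left the macrophage log2 change at 3.04, and dropping OSA replicate 3 lowered it to 2.72. The summed fibroblast markers in macrophage-like cells were 499.8, 642 and 752 CPM in OSA and 356 CPM in the control, and in T and NK-like cells, where Timp1 was at 14.4, 12 and 28.0 CPM in OSA and 1.69 CPM from 1 UMI in the control, they were 1135, 1601 and 910.1 CPM in OSA and 613 CPM in the control. Of the 9 fibroblast markers 7 were above the control in every OSA library in macrophage-like cells and 6 in T and NK-like cells, none was at 0 in either class, and their part in the Timp1 level was not tested. Schwann-like cells had 23.1, 14.4 and 84.4 CPM in OSA and 5.54 CPM in the control, but 1 cell held 60 of the 118 UMIs of OSA replicate 3 and another 30 of the 100 UMIs of OSA replicate 1. Satellite-like cells, the stem cells of muscle, had 49.8, 19.6 and 62.1 CPM in OSA and 13.5 CPM in the control. Lymphatic endothelial-like cells had 17.2, 41.9 and 46.6 CPM in OSA and 8.71 CPM in the control. These 3 classes missed the threshold with edgeR (adjusted p = 1.00, 0.892 and 0.222). The log2 change was 1.81 without OSA replicate 3 in Schwann-like cells and 2.07 without OSA replicate 2 in satellite-like cells. In lymphatic endothelial-like cells it was 2.39 without OSA replicate 1. Neutrophil-like cells had 2, 29 and 35 Timp1 UMIs in OSA and 0 in 42 control cells. There 3 UMIs would be 40.5 CPM, above the 4.395 and 17.1 CPM of OSA replicates 1 and 2 and below the 68.8 CPM of OSA replicate 3.

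**Figure D3:**
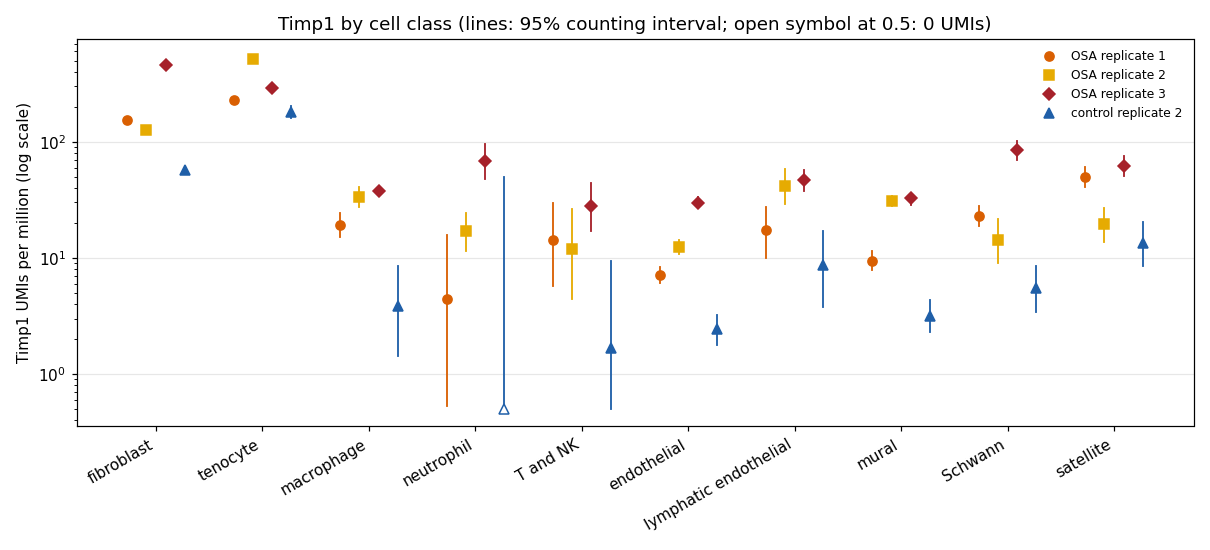
Timp1 in CPM (log scale) in 10 cell classes, with 1 symbol for each library, the OSA libraries left of the control, and vertical lines for the exact Poisson 95% interval, which covers counting error only. The control symbol is the lowest of the 4 in 9 classes, on 1 UMI in T and NK-like cells, and the open symbol marks the control neutrophil-like cells with 0 UMIs, where 3 UMIs would be 40.5 CPM.

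Within fibroblast-like cells Timp1 and Mmp3 were both among the 10 leading genes by fold of cluster 10, although the members were left out of the genes used for clustering. Cluster 10, led by the acute-phase gene Saa3 and by Sfrp2 and Ccn5, had 109, 34 and 935 cells in OSA replicates 1, 2 and 3 and 14 cells in the control, which is 4.66%, 1.29% and 25.2% of fibroblast-like cells in OSA and 0.541% in the control. It held Timp1 at 1118, 690.0 and 980 CPM in OSA and 103 CPM, from 18 UMIs, in the control. Adventitial cluster 8, led by Cxcl13 and Pi16, had Timp1 at 70.1, 129 and 165 CPM in OSA and 34.2 CPM in the control, with all OSA libraries above the control. Interstitial cluster 9, led by Smoc2 and Myoc, had 57.4, 108 and 89.0 CPM in OSA and 72.1 CPM in the control, so its OSA libraries lay on both sides. Without cluster 10, a setting chosen after its cells were seen, the log2 change of the class was 0.85 for Timp1 (with it, 2.19) and 1.22 for Mmp3 (with it, 2.04), each with an edgeR adjusted p of 1.00, and no member passed.

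Mmp3, the stromelysin that cuts proteoglycans, laminin and other proenzymes, was at 89.9, 22.5 and 76.8 CPM in fibroblast-like cells of OSA and 15.9 CPM in the control. The OSA libraries were all above the control, OSA replicate 2 by little, and the log2 change was 2.04 ± 1.23 (SE) with an edgeR adjusted p of 0.999. Without OSA replicate 2 the log2 change was 2.45. Cluster 10 had Mmp3 at 379, 12.5 and 158 CPM in OSA and 22.9 CPM, from 4 UMIs, in the control, and cluster 8 had 110.4, 44.8 and 26.1 CPM in OSA and 31.7 CPM in the control, so the OSA libraries lay on both sides of the control in both clusters. Cluster 9 had Mmp3 at 43.3, 10.1 and 23.7 CPM in OSA and 5.49 CPM in the control, with all OSA libraries above the control (log2 change 2.24 ± 1.31 SE, edgeR adjusted p = 0.999). Of the fibroblast-like cells with an Mmp3 UMI, 56.5%, 58.1% and 74.4% also had a Timp1 UMI in OSA and 22.2% in the control, beside 26.2%, 38.5% and 47.9% of all fibroblast-like cells in OSA and 18.2% in the control. These shares are at full depth, and the part of depth per cell was not tested. In tenocyte-like cells Mmp3 lay on both sides of the control, at 25.7, 10.1 and 13 CPM in OSA and 20.3 CPM in the control, where 1 cell held 22 of the 33 control UMIs.

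**Figure D4:**
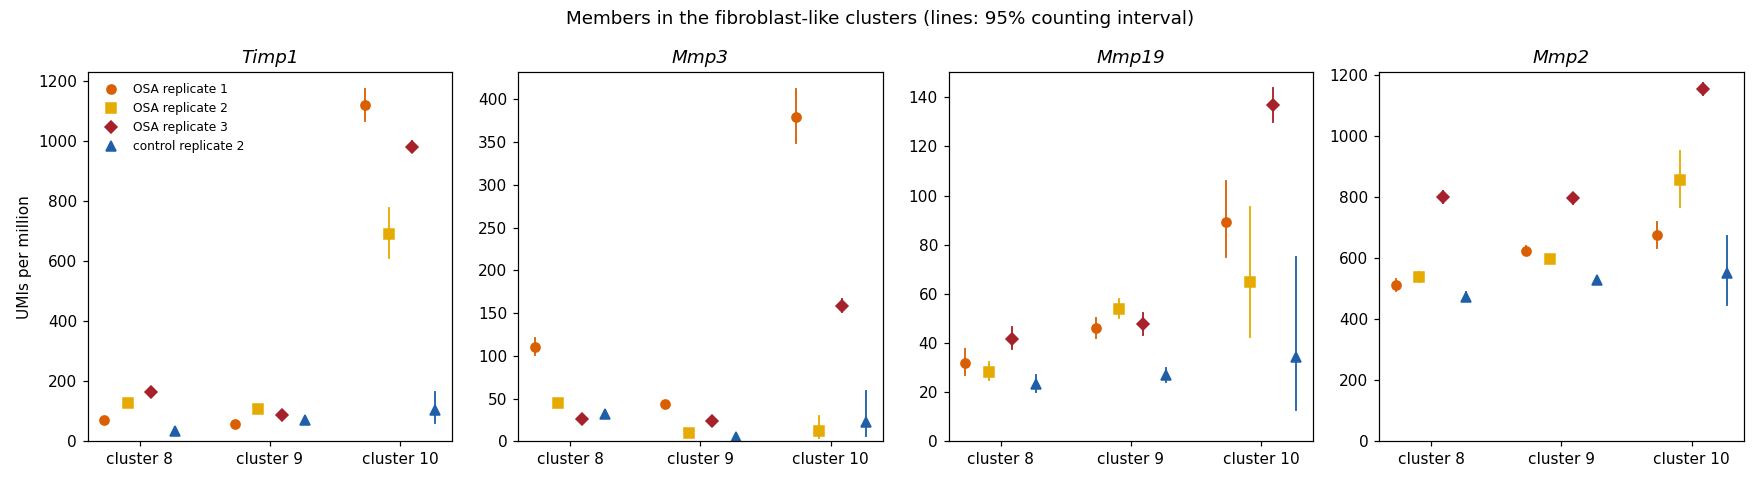
Timp1, Mmp3, Mmp19 and Mmp2 in CPM in the fibroblast-like clusters 8, 9 and 10, with the OSA libraries left of the control and exact Poisson 95% intervals for counting error. Timp1 in cluster 10 was at 690.0 to 1118 in the OSA libraries and at 103 in the control, which had 14 cells there.

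Mmp2 and Mmp14, the enzyme and its activator, were both found in fibroblast-like and tenocyte-like cells. The log2 change of Mmp2 in fibroblast-like cells was 0.55 ± 0.37 (SE), edgeR adjusted p = 0.999, with all OSA libraries above the control. Mmp14 in fibroblast-like cells was at 112, 99.3 and 189 CPM in OSA and 109 CPM in the control, with the OSA libraries on both sides, and tenocyte-like cells had 114, 65.1 and 69.6 CPM in OSA and 97.0 CPM in the control, again on both sides. In mural-like cells Mmp14 was at 39.6, 47.9 and 49.3 CPM in OSA and 38.3 CPM in the control. Within clusters 8 and 9 Mmp14 had a log2 change of -0.03 ± 0.25 (SE) and -0.01 ± 0.23 (SE), with edgeR adjusted p-values of 1.00 and 0.999. Mmp2 and Mmp14 were found in the same cells: 93.5%, 94.6% and 95.1% of the fibroblast-like cells with an Mmp14 UMI had an Mmp2 UMI in OSA and 91.7% in the control, beside 84.6%, 89.9% and 89.6% of all fibroblast-like cells in OSA and 87.9% in the control. These shares were counted at full depth, and the part of depth per cell in them was not tested. Mmp2 at low levels in other classes was above the control in every OSA library of the endothelial-like class, at 20.3, 28.2 and 49.0 CPM in OSA and 15.9 CPM in the control, beside the fibroblast markers given above. Its log2 change there was 1.09 ± 0.71 (SE), edgeR adjusted p = 0.957. The fit that omitted OSA replicate 1 gave 1.37, and the fit that omitted OSA replicate 2 gave 1.21.

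Macrophage-like cells showed another picture for Mmp14. It was at 127, 83.3 and 181 CPM in OSA and 13.6 CPM in the control, and the groups did not overlap. The control level rested on 21 UMIs in 6 of 213 cells, and 1 cell of cluster i6 held 13 of them, so that the control stood at 5.23 CPM without that cell. At 1000 UMIs per cell, with 410, 451 and 1493 OSA cells and 204 control cells deep enough, 12.2%, 9.98% and 15.9% of the OSA cells and 0.490% of the control cells had an Mmp14 UMI, against 42.8%, 25.5% and 50.4% of OSA cells and 2.82% of control cells at full depth. In T and NK-like cells of the same thinning the shares were 0.952%, 2.25% and 1.71% in OSA and 0 of 132 cells in the control, where 3 UMIs would be 5.06 CPM. The log2 change in macrophage-like cells was 3.36 ± 0.70 (SE), with an edgeR adjusted p of 0.109. It passed with DESeq2 (3.33, DESeq2 adjusted p = 1.98e-06). When OSA replicate 2 was omitted the log2 change rose to 3.63, and when OSA replicate 3 was omitted it fell to 2.93.

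The class had another makeup in the 2 groups. Resident cluster i1, led by Folr2, Cbr2 and Fcna, held 26.0%, 35.3% and 11.2% of macrophage-like cells in OSA and 73.7% in the control. Clusters i6, i7 and i19, which carried markers of lipid-associated macrophages (Gpnmb, Trem2 and Spp1 led i6), held few control cells. Cluster i6 had 66, 10 and 346 cells in OSA and 1 in the control, i7 had 52, 116 and 291 in OSA and 1 in the control, and i19 had 81, 41 and 471 in OSA and 2 in the control. Mmp14 was at 369, 273 and 285 CPM in i7 and 224, 249 and 269 CPM in i19 in OSA, and at 110, 151 and 125 CPM in i6 in OSA. Within cluster i1 it was at 10.3, 8.98 and 28.5 CPM in OSA and 3.0 CPM, from 3 UMIs, in the control, a log2 change of 2.41 ± 0.82 (SE) with an edgeR adjusted p of 0.274. The 2 other clusters with over 10 control cells lay on both sides of the control. Cluster i0, with 31 control cells, had Mmp14 at 18.6, 2.21 and 27.1 CPM in OSA and 2.26 CPM, from 1 UMI, in the control, and cluster i5, with 19 control cells, had 102.5, 12.2 and 120.9 CPM in OSA and 57.4 CPM, from 4 UMIs, in the control. How much of the class difference came with the makeup was not tested.

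The log2 change of Mmp14 in macrophage-like cells was set against that in other classes by testing the per-library difference of log2 CPM between 2 classes with limma. The test had been meant for members called in a class, none was, and it is given here for all members. It ran over 21 pairs of classes and 111 member tests. The SE of a difference comes from the spread of the OSA libraries and is taken to hold for the single control library. The control level of Mmp14 in macrophage-like cells was 13.6 CPM, and 5.23 CPM without 1 cell, which the SE does not take into account. The log2 change of Mmp14 was larger in macrophage-like than in fibroblast-like cells by 2.92 ± 0.23 (SE, limma adjusted p = 0.0132, with 0.384% of genes called in that pair) and larger than in mural-like cells by 2.92 ± 0.41 (SE, limma adjusted p = 0.0270, with 1.4% of genes called). The other 3 pairs with macrophage-like cells in which Mmp14 was tested missed the threshold, with a difference of 3.43 from tenocyte-like (limma adjusted p = 0.0568), 2.94 from satellite-like (0.140) and 2.63 from Schwann-like cells (0.0645). These p-values are adjusted within a pair of classes. Adjusted over all 129614 gene tests of the 21 pairs they were 0.0905 and 0.151, and 4 of those tests passed, none of them of a member. The mural comparison had an adjusted p of 0.0809 without OSA replicate 1, with a difference of 2.81.

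**Figure D5:**
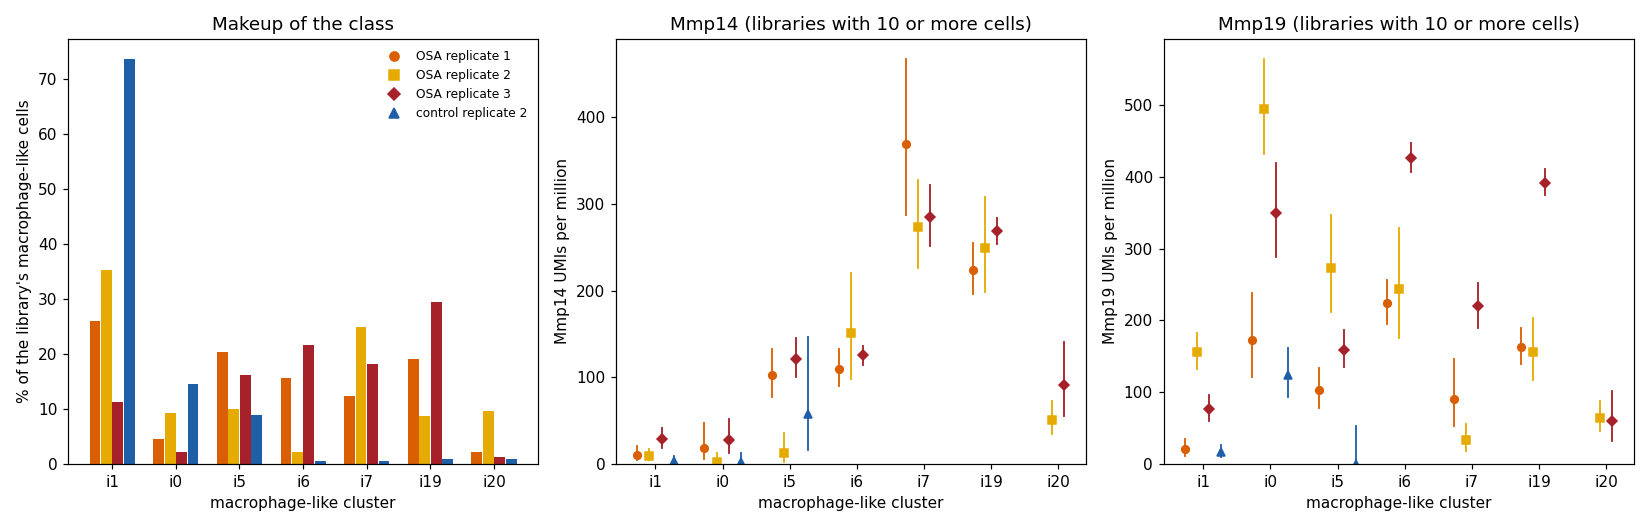
Share of each library's macrophage-like cells in 7 clusters (left), and Mmp14 and Mmp19 in CPM in those clusters for libraries with 10 or more cells (middle and right), with the OSA libraries left of the control and exact Poisson 95% intervals for counting error. Cluster i1 held 73.7% of control macrophage-like cells, and Mmp14 was highest in clusters i7 and i19, which had 1 and 2 control cells.

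Mmp19, a secreted enzyme that cuts basement membrane proteins, also stood above the control in every OSA library of macrophage-like cells. It was at 137, 183 and 341 CPM in OSA and 47.1 CPM in the control. The log2 change was 2.32 ± 0.76 (SE), edgeR adjusted p = 0.255. It passed with DESeq2 (2.29, DESeq2 adjusted p = 0.00105). Omitting OSA replicate 2 gave a log2 change of 2.49, and omitting OSA replicate 3 gave 1.73. Mmp19 was also found in cluster i0, led by Retnla and Ear2, at 172, 495 and 349 CPM in OSA and 124 CPM in the control. Cluster i1 had 20.6, 156 and 76.1 CPM in OSA and 16 CPM in the control. In fibroblast-like cells Mmp19 was at 46.2, 45.0 and 80.8 CPM in OSA and 25.6 CPM in the control. The log2 change was 1.24 ± 0.49 (SE) with an edgeR adjusted p of 0.999, against 1.41 without OSA replicate 1 and 1.41 without OSA replicate 2. Without cluster 10 the log2 change was 0.82 (edgeR adjusted p = 0.339), and interstitial cluster 9 had 46.1, 53.9 and 47.6 CPM in OSA and 26.9 CPM in the control (log2 change 0.90 ± 0.25 SE, edgeR adjusted p = 0.171).

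The leukocyte enzymes Mmp8 and Mmp9 differed widely between the OSA libraries. In neutrophil-like cells Mmp8 was at 582, 2129 and 214 CPM in OSA and 378 CPM in the control, so OSA replicate 3 was below and the other 2 above. Cluster i18, led by the granule genes Camp, Ngp and Ltf, held 191 cells, all from OSA replicate 2, with Mmp8 at 2199 CPM and Mmp9 at 1087 CPM. Cluster i11, the one neutrophil cluster with over 30 cells in each library, had Mmp8 at 1012, 2097 and 555 CPM in OSA and 425 CPM in the control, a log2 change of 1.67 ± 0.98 (SE) with an edgeR adjusted p of 0.661. Mmp8 UMIs in classes that are not neutrophils came largely from OSA replicate 2. Monocyte-like cells, too few to be tested, were highest in OSA replicate 1, with 134, 90.6 and 49.3 CPM in OSA. The control had 0 UMIs in 17 such cells, where 3 UMIs would be 29.7 CPM. Fibroblast-like cells had 0.286, 3.22 and 0.206 CPM in OSA and 0 CPM in the control, and endothelial-like cells 0.467, 3.70 and 0 CPM in OSA and 0.0527 CPM in the control. The summed neutrophil markers were likewise highest in OSA replicate 2, at 32.2, 563 and 36.5 CPM in fibroblast-like cells of OSA and 5.83 CPM in the control, and 32.2, 614 and 35.1 CPM in endothelial-like cells of OSA and 5.27 CPM in the control. Their part in the Mmp8 level was not tested.

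Mmp9 in neutrophil-like cells was at 294, 902 and 238 CPM in OSA and 418 CPM in the control, on both sides. In macrophage-like cells it was at 212, 49.6 and 260.5 CPM in OSA and 112 CPM in the control, also on both sides, and 1 control cell of cluster i6 held 66 of the 173 control UMIs, without which the control was at 69.9 CPM. Cluster i19 had Mmp9 at 428, 261 and 382 CPM in OSA. In resident cluster i1 it was lower in every OSA library, at 48.4, 48.9 and 72.9 CPM in OSA and 98.0 CPM in the control, a log2 change of -0.75 ± 0.32 (SE) with an edgeR adjusted p of 0.592. Over all kept cells, where cell makeup enters, Mmp9 was at 13.9, 27.5 and 47.9 CPM in OSA and 3.61 CPM in the control, with a log2 change of 3.20 ± 0.90 (SE), an edgeR adjusted p of 0.99 and a DESeq2 adjusted p of 0.000516.

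Timp2 in macrophage-like cells was the 1 of the 86 class fits with every OSA library below the control. It was at 627, 704 and 668 CPM in OSA and 848 CPM in the control, a log2 change of -0.30 ± 0.28 (SE) with an edgeR adjusted p of 0.648. Within resident cluster i1 it lay on both sides of the control, at 1014, 957 and 1306 CPM in OSA and 1134 CPM in the control. Timp3 in mural-like cells was at 1727, 1711 and 1156 CPM in OSA and 1046 CPM in the control (log2 change 0.58 ± 0.29 SE, edgeR adjusted p = 1.00). Timp4 in mural-like cells, given above, had a log2 change of 0.55 ± 0.25 (SE, edgeR adjusted p = 1.00), and in endothelial-like cells of 0.21 ± 0.21 (SE, edgeR adjusted p = 0.957). In endothelial-like, mural-like and fibroblast-like cells the Timp3 level of OSA replicate 3 was the lowest of the OSA libraries.

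The genes whose levels across the 40 sums of a class and library were most like each member's were named by the highest Pearson r of log2(CPM + 1), as a description over sums that share libraries and depth. They were Fbln1, Dcn and Serpinf1 for Mmp2 (r 0.955 to 0.969), Sfrp4, Cxcl14 and Ccn5 for Mmp3 (0.829 to 0.851), Wfdc21, Ly6g and Pram1 for Mmp8 (0.948 to 0.969) and Spi1, Nfam1 and Alox5ap for Mmp9 (0.947 to 0.969). Mmp14 was most like Gm56768, Gaa and Vim (0.842 to 0.917) and Mmp19 most like Rab7b, Ccl8 and Guca1a (0.834 to 0.902). Timp1 was most like Bgn, Col1a1 and Larp6 (0.849 to 0.853), Timp2 most like Nupr1, Ang and Sulf2 (0.836 to 0.883), Timp3 most like Sptan1, Prex2 and 9530026P05Rik (0.928 to 0.958) and Timp4 most like C1qtnf9, Flt1 and Fabp4 (0.980 to 0.987).

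The other genes of matrix proteolysis were counted on 6 lists. In macrophage-like cells 1 of 7 tested genes of the activators, inhibitors and surface partners rose and 0 fell. It was Thbs1 (thrombospondin 1, which binds MMPs and the matrix), with scaled levels of 66.7, 52.3 and 81.2 CPM in OSA and 5.70 CPM, from 9 UMIs, in the control (log2 change 3.55 ± 0.48 SE, edgeR adjusted p = 0.0111). Of the plasminogen genes there, 1 of 6 fell and 0 rose, Serpinf2 (the plasmin inhibitor), with 5.85, 4.62 and 6.21 scaled CPM in OSA and 23.4 CPM in the control (log2 change -2.05 ± 0.41 SE, edgeR adjusted p = 0.0489). The cluster makeup of macrophage-like cells differed between the groups, as given above, and its part in the Thbs1 and Serpinf2 calls was not tested. The other lists had 0 calls in macrophage-like cells, and all 6 lists had 0 in fibroblast-like, tenocyte-like, endothelial-like, satellite-like and neutrophil-like cells with edgeR.

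The calls of genes higher in OSA made up 0.229% of genes in macrophage-like, 1.22% in T and NK-like, 0.141% in Schwann-like, 0.102% in lymphatic endothelial-like and 0.0619% in mural-like cells, and those lower in OSA 0.522% in macrophage-like cells. T and NK-like cells had the most calls on the lists, and their makeup differed between the groups. Cluster i14, led by Scart1 and the T cell receptor delta gene Trdc, was 19.8%, 28.1% and 29.4% of the class in OSA and 2.27% (3 cells) in the control, and cluster i8, led by the cytotoxic genes Gzma, Ccl5 and Nkg7, was 12.3%, 11.2% and 7.07% in OSA and 29.5% in the control. The part of the makeup in the calls of this class was not tested. Mmp25, a membrane-bound MMP of leukocytes, was the only 1 of 17 other MMP genes to be tested there and it rose, with 36.6, 34.2 and 57.9 scaled CPM in OSA and 5.48 CPM, from 3 UMIs, in the control (edgeR adjusted p = 0.00653). Also called higher were Cd44, which docks Mmp9 at the cell surface (1 of 6 partners), Adam12 (1 of 10 ADAM genes), Slpi and Htra3 (2 of 7 other proteases and inhibitors) and the collagens Col1a1 and Col3a1 (2 of 10 substrates), and 0 genes of these lists fell. Adam12 was at 67.1, 125 and 78.3 scaled CPM in OSA and 3.66 CPM, from 2 UMIs, in the control (edgeR adjusted p = 9.17e-08), and Cd44 at 229.7, 215 and 255 scaled CPM in OSA and 91.4 CPM in the control (edgeR adjusted p = 0.00522). Htra3, a serine protease of the matrix, was at 81.3, 62.3 and 56.3 scaled CPM in OSA and 12.8 CPM, from 7 UMIs, in the control, and Slpi at 16.3, 28.1 and 20.3 scaled CPM in OSA with 0 UMIs in the control. These genes stood above the control in all 3 OSA libraries. Col1a1 and Col3a1 are fibroblast markers, whose sum in these cells is given above, and their part was not tested. Slpi, an inhibitor of neutrophil elastase, also rose in Schwann-like cells (1 of 9 tested genes of its list), lymphatic endothelial-like cells (1 of 7) and mural-like cells (1 of 10). In mural-like cells Slpi was at 11.9, 16.6 and 24.3 scaled CPM in OSA and 2.05 CPM in the control (log2 change 3.08 ± 0.44 SE, edgeR adjusted p = 0.0156). Slpi is 1 of the leading genes of neutrophil cluster i15, which had 70, 9 and 144 cells in OSA and 3 in the control, and the summed neutrophil markers in mural-like cells were 35.4, 653 and 34.5 CPM in OSA and 5.81 CPM in the control, with 7 of 9 above the control in every OSA library. Col3a1 rose in Schwann-like cells (1 of 12 substrates, edgeR adjusted p = 0.0143) and Col1a2 in lymphatic endothelial-like cells (1 of 11, edgeR adjusted p = 0.0175). Col3a1 was at 203, 114 and 315 scaled CPM in OSA and 83.3 CPM in the control. In Schwann-like cells the summed fibroblast markers were 1534, 1173 and 2095 CPM in OSA and 1277 CPM in the control. Of these 9 markers 3 were above the control in every OSA library. In lymphatic endothelial-like cells the sums were 614, 1050.0 and 945 CPM in OSA and 419 CPM in the control, with 7 of 9 above it. The part of the marker lists in the Slpi, Col3a1 and Col1a2 calls was not tested.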

How the data were processed

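Single-cell RNA was measured with the 10x Genomics platform, and the deposited matrices hold UMI counts per gene and barcode made by the authors with Cell Ranger 9.0.1, per the file headers. The builds GRCm39 and mm39 are named in the submitters' processing notes. Other steps of the authors' filtering are not given in the sources used here, and 0 matrix columns lacked a sample.

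Barcodes under 300 genes or 500 UMIs or over 20% mitochondrial UMIs were removed, and Scrublet in scanpy 1.11.5 (expected rate 0.1) marked 496, 358 and 574 doublets in OSA replicates 1, 2 and 3 and 423 in the control (3.16%, 2.84%, 4.01% and 3.09%), which were left out. Cells were clustered by Leiden at resolution 1 on 30 principal components of 2000 variable genes without the members and the listed pathway genes, immune cells a further time (clusters with i). A class needed 3 markers of its list, and 6118 of 54458 cells stayed unnamed. Class names are rebuilt from markers and may differ from the study's own. Counts were summed per library and class (at least 30 cells in each library) and tested with edgeR 4.0.16 (filterByExpr, TMM, robust quasi-likelihood, R 4.3.3), with Benjamini-Hochberg adjustment over all genes of a class. With 2 residual degrees of freedom, the spread of the single control library is taken to equal that of the 3 OSA libraries. DESeq2 1.42.0 was the other tool, and limma 3.58.1 (prior count 2) compared classes with at least 100 cells. A log2 change is OSA minus control. Levels are unscaled CPM of class totals unless called scaled (TMM), and whether every OSA library lay above the control was counted on scaled CPM. Intervals are exact Poisson or binomial at 95%, and intervals and the floor of 3 counts cover counting error only. Counts were also simulated with the same dispersion for every gene. On these edgeR called 57.9% and 98.9% of genes changed by 2 and 4 log2 units in macrophage-like cells, 89.8% and 100% in fibroblast-like cells and 36.6% and 93% in neutrophil-like cells. The spread between the measured libraries was not simulated. The shares therefore do not say how many such changes would be called in the measured data. Named genes were all members, the pathway genes that passed and the 3 genes most like each member. The members and lists were chosen with earlier results of these data known.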

Additional observations from a re-analysis of the deposited data

Results flagged for a closer look

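The log2 change of Mmp14 differed between macrophage-like cells and 2 other classes when adjusted within a pair of classes. The log2 change in macrophage-like cells exceeded that in fibroblast-like cells by 2.92 and that in mural-like cells by 2.92, in limma tests adjusted within each pair of classes (adjusted p = 0.0132 and 0.0270), with 3 of 3 OSA libraries above the control in macrophage-like cells. Adjusted over all 21 pairs neither passed (0.0905 and 0.151). The other 3 pairs with macrophage-like cells missed the threshold, with a difference of 3.43 from tenocyte-like (limma adjusted p = 0.0568), 2.94 from satellite-like (0.140) and 2.63 from Schwann-like cells (0.0645). Resident cluster i1 held 26.0%, 35.3% and 11.2% of the macrophage-like cells in OSA and 73.7% in the control, and its part in the difference was not tested. The control side rests on 21 UMIs, and 213 control macrophage-like cells were set against 423, 467 and 1599 in OSA.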

How the results depend on the processing

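The call counts below are member calls per class, 0 in every class as reported. With another setting they stayed at 0 in 92 repeats and moved in 28. The share of all genes called under the same setting stands beside each count. Without a filter on low counts edgeR called 1 member in Schwann-like (0.119% of genes), 2 in endothelial-like (0.604%), 2 in fibroblast-like (0.596%), 1 in lymphatic endothelial-like (0.183%), 4 in macrophage-like (3.76%), 4 in mural-like (0.486%) and 1 in satellite-like cells (0.359%). The DESeq2 Wald test called 3 in macrophage-like cells (3.22%) and 1 over all kept cells (0.782%). Thinning to equal totals gave 2 (1.91%) and Leiden resolution 0.5 gave 1 (1.74%) in macrophage-like cells, and clusters made with the members gave 1 in Schwann-like cells (0.15%). Leaving out 1 OSA library at a time gave 0 to 2 members in Schwann-like (0.165% to 0.526% of genes), 0 to 1 in T and NK-like (1.26% to 4.16%), 0 to 5 in endothelial-like (0.836% to 1.82%), 1 to 3 in fibroblast-like (0.247% to 1.41%), 0 to 2 in lymphatic endothelial-like (0.208% to 1.39%), 0 to 6 in macrophage-like (0.0161% to 9.55%), 0 to 5 in mural-like (0.0936% to 1.17%), 0 to 1 in satellite-like (0.566% to 0.875%) and 0 to 1 in tenocyte-like cells (0.016% to 0.524%), and 0 to 2 over all kept cells (0% to 0.929%). For 42 log2 changes (mean of 10 CPM or more, all OSA libraries on one side of the control), 439 of 440 repeats kept the direction. Choosing changes with all OSA libraries on one side makes a reversal unlikely, so nothing is read from that count. Of the 42 log2 changes, 20 passed under at least 1 setting, which includes the fits with 1 OSA library left out. The p-value of those fits would mainly measure how alike the remaining OSA libraries were. Timp3 in neutrophil-like cells reversed with doublets kept, at -0.284, and the cause was not tested. The Mmp14 difference between macrophage-like and mural-like cells ranged from 2.68 to 3.25 with 1 OSA library left out and missed the threshold without OSA replicate 1 (2.81, limma adjusted p = 0.0809). Without OSA replicate 2 the genes called in that pair were 979, against 82 with it, and in the pair with fibroblast-like cells 904, against 22. Leaving out fibroblast cluster 10 and neutrophil cluster i18, and a prior count of 5, were chosen after seeing the data. No paired analysis was possible because the groups with matrices share only 1 replicate number. The single control library and its few macrophage-like and neutrophil-like cells limit the precision.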

Other observations

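Timp4 was also abundant in a cluster that took no class name. Cluster 4 had 1250, 1113 and 1290 OSA cells and 1088 control cells, with endothelial markers and, among its leading genes, the muscle fibre genes Mb, Tnnc2 and Acta1 beside Timp4. Timp4 was at 1659, 1543 and 1673 CPM there in OSA and 1562 CPM in the control, and Timp3 at 1544, 1442 and 1046 CPM in OSA and 1146 CPM in the control. The OSA libraries lay on both sides of the control for both genes, and no test was made.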
